A study of Mus musculus with 84 samples.

Results

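The genes described here were 9 epithelial genes of antimicrobial defence and of the response to the microbiota: Reg3b, Reg3g, Saa1, Saa2, Duox2, Duoxa2, Nos2, Lcn2 and Pigr. They were chosen by symbol, all 9 were found among the 25494 genes of the RNA-seq count table, and all 9 passed the low-count filter that left 15893 genes for testing. Peaks of H3K27ac, H3K4me1 and HNF4a were assigned to a gene where they overlapped its locus extended by 10 kb on each side, a stretch called the window of the gene. The study asked how an obesogenic diet and the gut bacteria that go with it act on the epigenome and transcriptome of the mouse colon epithelium. RNA-seq came as 12 libraries from male C57BL/6 recipients that were bought germ-free, received bacteria at 6 weeks of age and were kept for 5 weeks on a high fat diet (HFD, 60% fat) or a low fat diet (LFD, 10% fat). The bacteria came from the stool of conventional males fed the HFD (HFB) or the LFD (LFB), so that the groups HFDHFB, HFDLFB, LFDHFB and LFDLFB name the diet of the recipient and then the bacteria, with 3 libraries each. H3K27ac was also profiled in 11 libraries of such recipients, 2 of HFDHFB and 3 of each other group. H3K27ac and H3K4me1 were profiled in conventional males and females fed the HFD or the LFD for 20 weeks from 6 weeks of age (12 libraries per mark, 3 for each sex and diet), and HNF4a in 4 libraries of such males, 2 per diet. Cells for RNA were scraped from the colon whereas cells for ChIP-seq were detached with EDTA, and no transgene or deletion was used. The labels do not say that each library came from a separate animal, so the p-values measure the spread between these libraries, which may in part be technical.

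Intestinal epithelial cells answer bacteria at their surface with a small set of secreted and membrane proteins. Bacterial contact reaches these genes directly through Toll-like and NOD receptors and NF-kB, and indirectly through lymphoid cells whose IL-22 and IL-17 act on the epithelium through STAT3 and C/EBP factors. The products kill bacteria (the Reg3 lectins), bind lipids and retinol (the serum amyloid A proteins), make hydrogen peroxide or nitric oxide (Duox2 with its maturation factor Duoxa2, and Nos2), hold back bacterial iron uptake (Lcn2) or carry IgA into the lumen (Pigr). In germ-free animals many of these genes are low, and colonization raises them, which is why they are used as a readout of the microbiota.

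The members form 3 pairs of neighbours. Reg3b (gene 18489, chr6:78320879-78323460 in mm9, plus strand) and Reg3g (gene 19695, chr6:78416263-78418868, minus strand) have 92.8 kb between their loci, and their coding sequences were 76.6% identical. Saa1 (gene 20208, chr7:53995869-53998350, minus strand) and Saa2 (gene 20209, chr7:54007203-54009684, plus strand) start 8.85 kb apart and point away from each other. Their coding sequences were 95.1% identical over 369 bases. Duox2 (gene 214593, chr2:122106173-122123901, minus strand) and Duoxa2 (gene 66811, chr2:122124636-122128621, plus strand) start only 734 bp apart, also in opposite directions, so that their windows overlap and share peaks. Nos2 (gene 18126, chr11:78734289-78773728, plus strand), Lcn2 (gene 16819, chr2:32240157-32243259, minus strand) and Pigr (gene 18703, chr1:132723261-132748826, plus strand) stand alone.

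The promoters of the Reg3 and Saa pairs, whose coding sequences were compared above, are shown, and those of the Duox pair are not printed. RefSeq promoters (build GRCm38.p6) were matched by symbol for 8 of the 9 members, all but Nos2, and the 200 bases before each start are printed in the direction of the gene. Capitals mark matches to 4 short motifs searched on both strands in the 250 bases before the start: TTCNNNGAA of STAT factors, TTGCNNAA of C/EBP factors, the NF-kB consensus and the TATA box TATAAA.
Reg3b promoter, chr6:78370685-78370884, plus strand: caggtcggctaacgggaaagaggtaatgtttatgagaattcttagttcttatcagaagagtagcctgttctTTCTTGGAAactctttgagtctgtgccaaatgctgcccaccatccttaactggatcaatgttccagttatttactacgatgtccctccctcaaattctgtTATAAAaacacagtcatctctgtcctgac
Reg3g promoter, chr6:78468875-78469074, minus strand: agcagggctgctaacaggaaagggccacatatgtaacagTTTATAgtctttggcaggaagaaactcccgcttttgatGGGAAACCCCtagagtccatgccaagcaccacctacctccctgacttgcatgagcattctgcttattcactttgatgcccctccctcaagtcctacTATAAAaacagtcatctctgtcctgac
Saa1 promoter, chr7:46742981-46743180, minus strand: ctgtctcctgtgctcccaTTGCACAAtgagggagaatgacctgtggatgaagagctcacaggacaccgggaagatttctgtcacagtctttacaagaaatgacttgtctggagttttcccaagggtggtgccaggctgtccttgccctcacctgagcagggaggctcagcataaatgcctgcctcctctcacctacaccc
Saa2 promoter, chr7:46751633-46751832, plus strand: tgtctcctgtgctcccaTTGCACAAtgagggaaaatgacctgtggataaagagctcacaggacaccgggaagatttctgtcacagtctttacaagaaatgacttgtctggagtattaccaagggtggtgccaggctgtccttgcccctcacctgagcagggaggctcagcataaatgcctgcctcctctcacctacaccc
The Reg3b promoter held a STAT match, TTCTTGGAA, from −129 to −121 bases of the start and a TATA box from −29 to −24. The Reg3g promoter held no STAT match. It held GGGAAACCCC, which matched the NF-kB consensus on both strands, from −123 to −114, a TATA box from −27 to −22 and a second, on the other strand, from −161 to −156. The 250 bases before Reg3b and Reg3g were 68.9% identical. Those before Saa1 and Saa2 were 94.8% identical and held the same C/EBP match, TTGCACAA, from −182 and −183. Of the remaining promoters, Lcn2 held a C/EBP match, TTGCTCAA, from −216 to −209, Duoxa2 a TATA box from −30 to −25, and Duox2 and Pigr none of the 4. Over all 32851 RefSeq promoters of the same length, 7.02% held the STAT motif, 7.25% the NF-kB consensus, 9.56% the C/EBP motif and 12.4% the TATA box. These matches describe letters in a window and do not show that a factor binds there.

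HNF4a, a nuclear receptor of the gut epithelium, is the only transcription factor whose peaks were measured. The sites found in at least 3 of 4 libraries are shown where they lie outside exons, 200 bases each from the plus strand of mm9. Capitals mark CAAAGNNCA, the core of the HNF4a motif, on either strand.
Pigr, intronic site nearer to the start, chr1:132729266-132729465: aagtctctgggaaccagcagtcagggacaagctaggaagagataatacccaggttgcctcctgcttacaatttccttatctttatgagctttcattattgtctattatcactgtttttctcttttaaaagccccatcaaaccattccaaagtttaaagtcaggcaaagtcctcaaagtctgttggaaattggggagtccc
Pigr, intronic site farther from the start, chr1:132737680-132737879: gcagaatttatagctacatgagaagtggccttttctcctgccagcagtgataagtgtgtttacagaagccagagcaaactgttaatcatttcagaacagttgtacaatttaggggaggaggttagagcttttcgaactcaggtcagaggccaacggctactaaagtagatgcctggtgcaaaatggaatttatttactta
Saa1, nearer site, chr7:53994045-53994244: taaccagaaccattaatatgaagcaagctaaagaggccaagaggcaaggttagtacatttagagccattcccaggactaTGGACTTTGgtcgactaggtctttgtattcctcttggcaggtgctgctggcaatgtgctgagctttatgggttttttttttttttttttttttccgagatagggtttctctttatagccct
Saa1, farther site, chr7:53990338-53990537: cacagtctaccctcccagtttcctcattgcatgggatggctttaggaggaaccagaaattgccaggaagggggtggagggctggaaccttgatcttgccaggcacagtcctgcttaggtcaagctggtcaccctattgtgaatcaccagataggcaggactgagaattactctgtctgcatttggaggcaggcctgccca
Reg3b, upstream site, chr6:78312240-78312439: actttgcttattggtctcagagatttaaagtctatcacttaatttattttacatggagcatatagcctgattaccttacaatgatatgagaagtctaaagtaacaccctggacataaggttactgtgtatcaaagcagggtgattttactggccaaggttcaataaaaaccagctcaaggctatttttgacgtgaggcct
Both Pigr sites lie in introns, 6.11 and 14.5 kb past its start, and had a peak in 4 of 4 HNF4a libraries. Both Saa1 sites lie between genes, 4.2 and 7.91 kb past the Saa1 start and beyond its end, and also had a peak in 4 of 4. The farther one was nearest to the start of Saa4, 2.53 kb away. The Reg3b site, between genes and 8.54 kb before the start, had a peak in 3 of 4, 1 of the HFD and 2 of the LFD. Among these 5 and the Duox2 site described with the other peaks, the nearer Saa1 site alone held the core, as TGGACTTTG on the plus strand. Over the genome 37.6% of the 8494 sites with a peak in all 4 libraries held the core in the same length, against 4.80% of 8488 regions lying 5 kb away.

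Library totals were 39904191 to 48026846 counted reads, so that 1 read was worth 0.0215 to 0.0243 CPM (the count scaled to library size with TMM factors). Within each group every pair of libraries differed by more than sampling noise. The library LFDHFB 3 stood apart, with a mean rank correlation to the others of 0.959 against 0.974 to 0.983, and results that rest on it are given without it. Summed markers of epithelium were at 10750 to 16240 CPM in every library. Of 10 markers of Paneth cells and the small intestine 4, all of them Paneth cell defensins, were at 0 in all 12. The whole list summed to 56.5 to 112 CPM, with Rbp2 at 29.2 to 103 CPM and Fabp6 at 4.02 to 20.2 CPM. Of 8 neutrophil markers 4 passed the filter. Their sum of 18.02 to 791 CPM was nearly all Ly6g (16.3 to 789 CPM), while the other 7 were each at 1.51 CPM or less and Mpo at 0.0484 or less. Pancreas markers summed to 587 CPM in HFDLFB 3 and to at most 7.96 elsewhere, and smooth muscle markers ranged from 1080 (HFDLFB 3) to 6975 CPM (HFDHFB 3). In bulk RNA fewer cells of a type and less RNA per cell cannot be told apart.

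In the recipients Saa1 and Pigr were among the most abundant transcripts of the cells scraped from the colon. By mean CPM Saa1 was number 6 and Pigr number 12 of the 15893 genes tested. Per kb of exon the median over the 12 libraries was 9050 CPM for Saa1 and 967 for Pigr, followed by 223 for Saa2, 30.4 for Reg3b, 15.8 for Duoxa2, 10.7 for Duox2, 5.33 for Reg3g, 1.44 for Nos2 and 1.03 for Lcn2. Saa1 at 3370 to 13800 CPM per kb did not overlap the others, and neither did Pigr at 258 to 1370 overlap any but Reg3b and Saa2. Reg3b reached from 0.874 to 522 CPM per kb and so overlapped all members but Saa1. Reg3g overlapped Duoxa2, Duox2, Nos2 and Lcn2, and Nos2 overlapped Lcn2.

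The Reg3 genes encode secreted C-type lectins, of which Reg3g kills Gram-positive bacteria and keeps them at a distance from the epithelium. Among HFD-fed recipients Reg3b was at 1.57, 35.3 and 26.9 CPM in HFDHFB 1 to 3 and at 51.9, 5.08 and 19.3 CPM in HFDLFB 1 to 3. Among LFD-fed recipients it was at 18.5, 72.7 and 396 CPM in LFDHFB and at 82.5, 4.04 and 0.663 CPM in LFDLFB. Every group spread over a range of at least 10.2-fold, LFDLFB over 124-fold, and all groups overlapped. The within-group SD of Reg3b, 2.54 on the log2 CPM scale, was number 2 of all 15893 genes, whose median was 0.284. Reg3g was lower than Reg3b in all libraries but HFDHFB 1 and LFDLFB 3, with 2.14, 4.67 and 5.54 CPM in HFDHFB, 6.02, 3.41 and 1.95 in HFDLFB, 3.58, 11.02 and 34.0 in LFDHFB and 14.9, 1.03 and 0.686 in LFDLFB. Its within-group SD was 1.53, number 157. For both genes LFDHFB 3 was the highest library and LFDLFB 3 the lowest, both of them from LFD-fed recipients.

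The fitted differences of the Reg3 genes were large and their intervals were wide. LFDHFB against LFDLFB gave a log2 fold change of 2.48 for Reg3b (SE 1.62, 95% interval −1.07 to 6.03, adjusted p = 0.975 by edgeR's quasi-likelihood test with Benjamini-Hochberg adjustment) and of 1.55 for Reg3g (SE 1.08, interval −0.82 to 3.91). Without LFDHFB 3 these values were 0.65 and 0.40, and without LFDLFB 1, the high library of its group, they were 6.14 and 4.27. HFDHFB against LFDHFB gave −2.93 for Reg3b (interval −6.55 to 0.69, edgeR adjusted p = 0.755) and −1.98 for Reg3g (−4.38 to 0.42), and −1.10 and −0.83 without LFDHFB 3. Among HFD-fed recipients the bacteria made a fitted difference of −0.26 for Reg3b and 0.12 for Reg3g, with intervals of −3.65 to 3.13 and −2.23 to 2.46. No difference of either gene passed an adjusted p of 0.05. Without LFDLFB 1 the unadjusted p of LFDHFB against LFDLFB was 0.00895 for Reg3b and 0.0015 for Reg3g, with an edgeR adjusted p of 1.0 for both. On the linear scale the interval of Reg3b on the LFD reached from 0.478-fold to 65.5-fold.

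Saa1 and Saa2 encode small acute-phase apolipoproteins that the gut epithelium makes on contact with certain bacteria and under IL-22. Among HFD-fed recipients Saa1 was at 4063, 2825 and 5377 CPM in HFDHFB and at 4935, 8367 and 6241 CPM in HFDLFB. Among LFD-fed recipients it was at 5572, 8194 and 2039 CPM in LFDHFB and at 6452, 3686 and 6753 CPM in LFDLFB. The lowest value belonged to LFDHFB 3, the library with the most Reg3b. Saa2 was at 80.6, 56.3 and 133 CPM in HFDHFB, 114, 261 and 174 in HFDLFB, 162, 203 and 50.7 in LFDHFB and 139, 85.6 and 165 in LFDLFB. Saa2 was thus low where Saa1 was low, and the count of Saa1 was 32.1 to 50.4 times that of Saa2 in every library. Since 51 of the 556 stretches of 50 bases in the Saa1 transcript (9.17%) also occur in Saa2, and the counting of such reads is not stated, the 2 genes are not fully independent measurements.

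Saa1 and Saa2 had lower mean values with HFB than with LFB among HFD-fed recipients, but neither difference passed the test. HFDHFB against HFDLFB gave −0.67 for Saa1 (SE 0.46, interval −1.67 to 0.33, edgeR adjusted p = 0.694) and −1.03 for Saa2 (SE 0.49, interval −2.11 to 0.06, unadjusted p = 0.062, edgeR adjusted p = 0.565). HFDHFB 3, at 133 CPM, overlapped HFDLFB 1, at 114 CPM. Without LFDHFB 3 the unadjusted p of Saa2 was 0.0176, with an edgeR adjusted p of 0.385. On the LFD the same contrast of bacteria gave −0.10 and 0.10, with intervals of −1.09 to 0.90 and −0.98 to 1.17. The difference between the diets in the effect of the bacteria was −1.12 for Saa2 (interval −2.65 to 0.40, edgeR adjusted p = 0.567).

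Duox2, an NADPH oxidase, releases hydrogen peroxide at the surface of the epithelium, and needs Duoxa2 to leave the endoplasmic reticulum. Duox2 was at 74.9, 39.8 and 60.6 CPM in HFDHFB, 81.1, 120 and 70.3 in HFDLFB, 53.8, 163 and 49.6 in LFDHFB and 59.1, 81.4 and 85.0 in LFDLFB. Duoxa2 was at 23.9, 13.6 and 31.1 CPM in HFDHFB, 25.3, 41.8 and 21.4 in HFDLFB, 17.2, 51.7 and 8.45 in LFDHFB and 25.1, 29.2 and 29.9 in LFDLFB. The highest library of both was LFDHFB 2, and LFDHFB was the group with the widest spread, 3.29-fold for Duox2 and 6.12-fold for Duoxa2. HFDHFB against HFDLFB gave −0.63 for Duox2 (SE 0.43, interval −1.56 to 0.30, edgeR adjusted p = 0.692) and −0.37 for Duoxa2 (interval −1.55 to 0.81). The other comparisons of the pair lay between −0.87 and 0.27, interaction included, with intervals that held 0.

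Nos2 encodes the inducible nitric oxide synthase, and was one of the 2 least abundant members. It was at 4.65, 2.30 and 8.89 CPM in HFDHFB, 4.05, 11.3 and 5.99 in HFDLFB, 6.21, 22.1 and 1.64 in LFDHFB and 4.99, 6.36 and 6.06 in LFDLFB. LFDHFB again held both the highest and the lowest library, 13.4-fold apart, whereas the LFDLFB libraries were within 1.27-fold of each other. HFDHFB against LFDHFB gave −0.92 (SE 0.76, interval −2.59 to 0.75, edgeR adjusted p = 0.852), and −1.42 without LFDHFB 3, at an unadjusted p of 0.0402 and an edgeR adjusted p of 0.559. The other 5 comparisons gave −1.21 to 0.78.

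Lcn2 encodes lipocalin-2, which binds the siderophores with which bacteria take up iron, and is made by neutrophils as well as by epithelium. It was at 0.690, 3.08 and 2.36 CPM in HFDHFB, 5.21, 9.57 and 2.04 in HFDLFB, 2.71, 1.60 and 1.82 in LFDHFB and 2.02, 2.40 and 3.50 in LFDLFB. HFDLFB 1 and 2 were higher than every other library, but HFDLFB 3, at 2.04 CPM, lay among the rest. HFDHFB against HFDLFB gave −1.46 (SE 0.59, interval −2.76 to −0.16, unadjusted p = 0.0315, edgeR adjusted p = 0.513), the only difference of a member with an unadjusted p under 0.05. Over the 12 fits with a library left out it ranged from −1.87 to −0.82, and the unadjusted p was at or below 0.05 in 10 of them. HFDLFB against LFDLFB, which shares the HFDLFB libraries, gave 1.09 (interval −0.20 to 2.37, edgeR adjusted p = 0.881). The 4 neutrophil markers that were tested all had negative values in HFDHFB against HFDLFB, with a median of −0.76 and none at an unadjusted p under 0.05. The sum of the neutrophil markers, nearly all Ly6g, was 310 and 597 CPM in HFDLFB 1 and 2. It was highest in LFDHFB 2, at 791 CPM, where Lcn2 was at 1.60 CPM. HFDLFB 1 and 2, the libraries with the most Lcn2, also had the most of the mesothelium markers (529 and 611 CPM in sum, against 164 to 325 elsewhere) and of the fibroblast markers (1653 and 1536 CPM, against at most 1035). In HFDHFB against HFDLFB 7 of 8 mesothelium markers were lower at an unadjusted p under 0.05, with a median of −2.17, and 1 of 8 fibroblast markers. The share of all genes at that level in either direction was 9.07%. The part of any of these markers in the difference of Lcn2 was not tested.

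Pigr encodes the receptor that carries dimeric IgA through the epithelial cell and releases it into the lumen. It was at 4102, 2271 and 2271 CPM in HFDHFB, 1038, 5005 and 4010 in HFDLFB, 4114, 5500 and 1647 in LFDHFB and 3845, 3435 and 3939 in LFDLFB. LFDLFB was narrow, at 3740 ± 268 CPM (SD, n = 3), while HFDLFB was wide, at 3351 ± 2064 CPM (SD, n = 3). Its 2 lowest libraries were HFDLFB 1 and LFDHFB 3. In all 6 comparisons Pigr lay between −0.38 and 0.005, and each interval held 0.

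**Figure D1:**
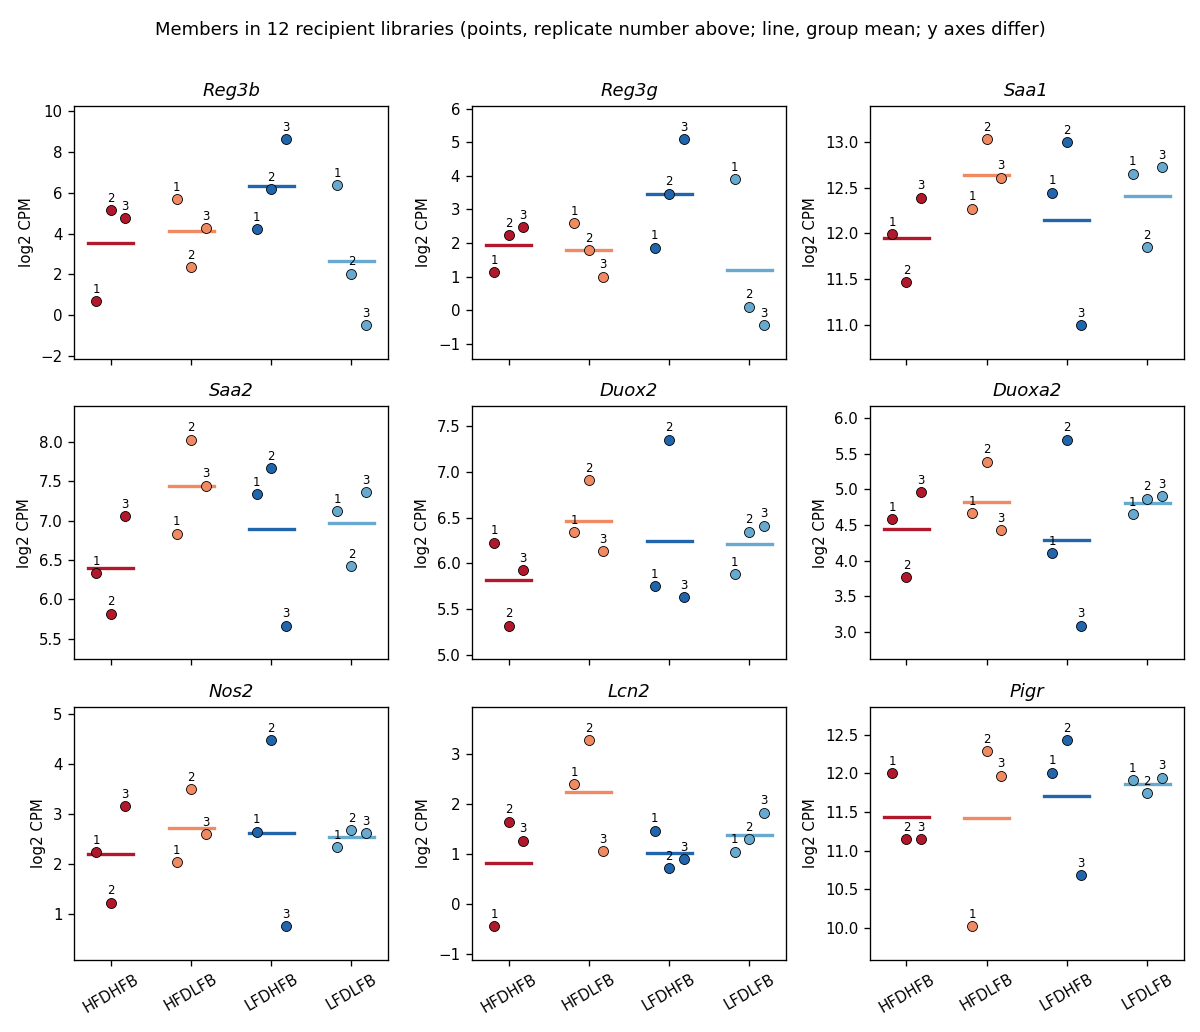
Log2 CPM of the 9 members in the 12 RNA-seq libraries of recipients, by group on the x axis. Points are libraries with their replicate number, lines are group means, and the y axes differ. Reg3b spans 0.663 to 396 CPM, all groups overlap for every member, and LFDHFB 3 is the highest library for Reg3b and Reg3g and the lowest for Saa1, Saa2, Duoxa2 and Nos2.

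Over all genes the 6 comparisons gave no call at an adjusted p of 0.05 in edgeR's quasi-likelihood test with Benjamini-Hochberg adjustment (0% of 15893 genes, 0 of 9 members). HFDHFB against HFDLFB had 1441 genes at an unadjusted p under 0.05, or 9.07%, and DESeq2 called 80. LFDHFB against LFDLFB had 592 (3.72%) with 1 DESeq2 call, and the interaction of diet and bacteria had 1794 (11.3%) with 115 DESeq2 calls. HFDHFB against LFDHFB had 1186 (7.46%) with 154, HFDLFB against LFDLFB had 847 (5.33%) with 11, and the diets over both donors had 468 (2.94%) with 6. At an unadjusted p under 0.05 stood 1 member (Lcn2) in the HFDHFB and HFDLFB comparison and 0 in the other 5, and DESeq2 called none of the 9. DESeq2 gave an unadjusted p under 0.05 to 2 members, Lcn2 (0.0123, adjusted p = 0.28) and Saa2 (0.0311, adjusted p = 0.393), both in HFDHFB against HFDLFB. Groups did not overlap for 13% of all genes in HFDHFB against HFDLFB, 10.8% in LFDHFB against LFDLFB, 11% in HFDHFB against LFDHFB, 11.7% in HFDLFB against LFDLFB and 0.12% between the diets over both donors. For the members the groups overlapped in all 5.

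The direction of the fitted values is given as a description, since the 6 comparisons share libraries. HFDHFB against HFDLFB was negative for 8 of the 9 members, all but Reg3g, with a median of −0.43 against −0.002 over all genes. HFDHFB against LFDHFB, with the same HFDHFB libraries, was at or below 0 for all 9, with a median of −0.60 against −0.03. LFDHFB against LFDLFB was positive for 6 and negative for 3 with a median of 0.10, and HFDLFB against LFDLFB likewise with a median of 0.21. The interaction of diet and bacteria was negative for all 9 members, from −2.74 (Reg3b) to −0.22 (Pigr), with a median of −1.09 against −0.05 over all genes. Without LFDHFB 3 it was −0.91 for Reg3b and −0.28 for Reg3g, and without LFDLFB 1 it was −6.44 and −4.19. No single member passed the test in the interaction, and the smallest edgeR adjusted p was 0.567 for Saa2. Markers of absorptive colonocytes had the same direction. Of 8 markers 8 were negative in HFDHFB against LFDHFB (median −0.53), 7 in HFDHFB against HFDLFB (−0.35) and 7 in the interaction (−0.34). In the same order mesothelium markers had 7, 7 and 7 of 8 negative, and tested genes of IL-22, IL-17 and STAT3 signalling 15, 12 and 13 of 17. Markers of goblet cells went the other way, with 6, 8 and 8 of 8 positive, as did those of smooth muscle, with 8, 8 and 7. Markers of epithelium as a whole had 3, 7 and 7 of 8 positive. The part of any of these lists in the direction of the members was not tested.

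**Figure D2:**
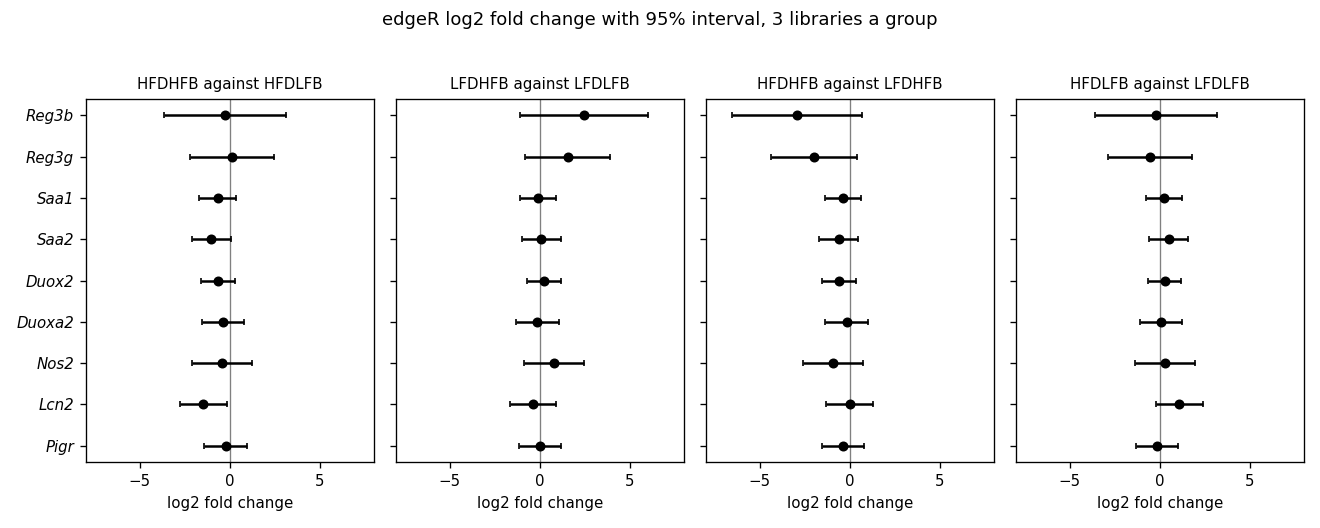
Log2 fold changes of the 9 members by edgeR in 4 comparisons of 3 libraries against 3, with 95% intervals as bars. Each interval but that of Lcn2 in HFDHFB against HFDLFB (−2.76 to −0.16) crosses 0, and those of Reg3b, such as −1.07 to 6.03, are the widest.

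The members fell into groups by how they varied from library to library. Over the 12 libraries, which share the 4 groups and LFDHFB 3 as an outlying point, Pearson's r of log2 CPM was 0.92 for Reg3b and Reg3g, 0.97 for Saa1 and Saa2, and 0.85 for Duox2 and Duoxa2. Without LFDHFB 3 the values were 0.88, 0.97 and 0.92. Without the 2 libraries farthest from the median of the Saa gene, r between the Saa and the Duox genes, 0.67 to 0.84 over all 12, was 0.42 to 0.52. Nos2 went with Duoxa2 (0.92, and 0.88 without LFDHFB 3), Saa1 (0.85, and 0.76) and Saa2 (0.83, and 0.76). The Reg3 genes did not move with any of these: their r with the other 7 members was −0.46 to −0.06, and −0.31 to 0.21 without LFDHFB 3. Pigr had its highest r with Nos2 (0.65, and 0.55), and Lcn2 reached no more than 0.40 (with Saa2).

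**Figure D3:**
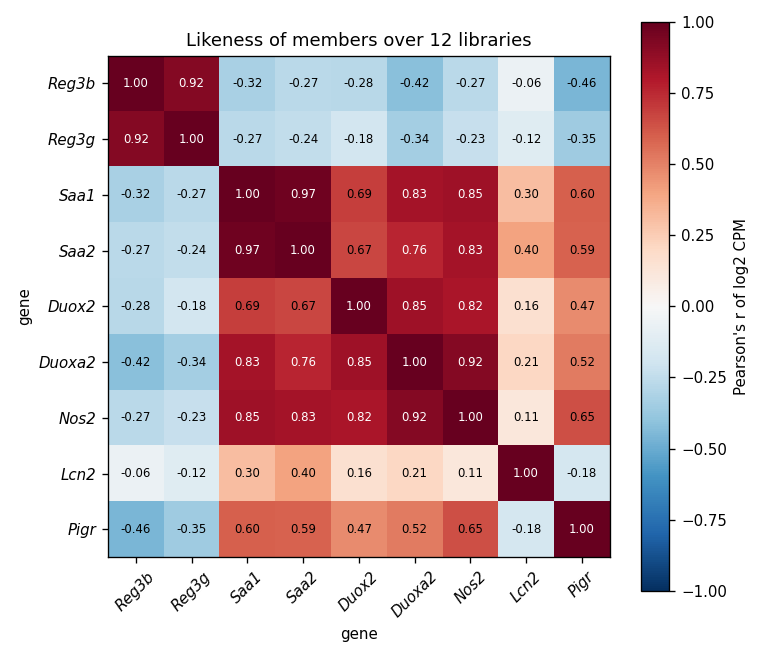
Pearson's r of log2 CPM between each pair of members over the 12 libraries, from −1 (blue) to 1 (red). Saa1, Saa2, Duox2, Duoxa2 and Nos2 form a block of 0.67 to 0.97, Reg3b and Reg3g go together at 0.92, and Lcn2 stays at or below 0.40 with every other member.

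Among all genes tested, the 2 most like each member by r over the 12 libraries were named. They were Arhgef26 (0.96) and Klra5 (0.89) for Reg3b, and Sstr5 (0.83) and Klra5 (0.83) for Reg3g, of which Klra5 stayed at or below 0.411 CPM. For Saa1 they were Stom and Syne3 (0.98 each, at 0.975), and for Saa2 Syne3 and N4bp2l1 (0.93 each). Duox2 was most like H2-Q4 (0.92), a major histocompatibility class I gene, and Trim40 (0.90). Nos2 was most like Zc3h12a (0.95), which encodes the RNase regnase-1 that degrades inflammatory mRNAs, and Gm6277 (0.93). The genes nearest to Duoxa2 were Gramd2 (0.92) and Gm14137 (0.91), those nearest to Lcn2 were Tmem221 and Hrct1 (0.93 each), and those nearest to Pigr were Celsr1 and Lman2 (0.95 each). These values are the highest of 15893 and so are a description only.

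Other genes of these pathways were counted from fixed lists, in each of which edgeR called 0 genes in every comparison. Of 21 further antimicrobial proteins tested, HFDHFB against HFDLFB had 2 higher and 2 lower at an unadjusted p under 0.05 and a median of −0.26. Among all genes tested 9.07% stood at that level in either direction in this comparison, with a median of −0.002. Of 17 genes of IL-22, IL-17 and STAT3 signalling 3 were lower and 0 higher at that level, with a median of −0.18. Of 25 genes of Toll-like receptor, NOD and NF-kB signalling 0 stood at that level in either direction. Of 20 partners of the oxidases and of nitric oxide synthesis 1 was higher and 2 were lower, of 11 chemokines 1 was lower, and of 12 genes around IgA and interferon-gamma 1 was higher and 1 lower. In LFDHFB against LFDLFB the 6 lists had 0 to 3 genes each at that level, against 3.72% of all genes. Close relatives of the members, picked out after their values were seen, were mostly low: Reg3a stayed at or below 0.735 CPM, Saa4 at or below 0.662, Duox1 at or below 0.367 and Duoxa1 at or below 0.653. Saa3 was at 4.86 to 168 CPM. The cytokine Il22 was at or below 0.0445 CPM and Il17a at or below 0.046, while the receptor chain Il22ra1 was at 132 to 287 CPM in the same libraries.

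H3K27ac lay over Saa1, the Duox pair and Pigr in nearly all libraries and was rare at the Reg3 genes. In the long-term animals 6 of the 9 members (Saa1, Saa2, Duox2, Duoxa2, Lcn2 and Pigr) had an H3K27ac peak in their window in 12 of 12 libraries, against 61.7% of 24010 genes. The share of the members was thus near that of all genes. The same 6 had one in 11 of 11 libraries of recipients, against 61.1%. At the start of the gene itself, H3K27ac was found in every long-term library for 4 members (Saa1, Duox2, Duoxa2 and Pigr, against 42.2% of all genes) and in every recipient library for 3 (Duox2, Duoxa2 and Pigr, against 41%). The Saa1 start had a peak in 6 of the 11 recipient libraries. H3K4me1 was in the window of 7 members in 12 of 12 libraries, all but Reg3b and Reg3g, against 73.6%, and at the start of 3 (Duox2, Duoxa2 and Nos2), against 15.4%.

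H3K27ac covered more of the Pigr and Saa1 windows than of most windows of the genome. A median of 62.7% of the Pigr window (59.7 to 77.1%) was covered by H3K27ac in the long-term libraries, and 1.17% of all genes had more. The widest single peak there was 30600 bp and ran over the start. Saa1 was covered to 54.6% (48.9 to 64.6%), with 2.28% of genes above it, whereas the median of all genes was 5.43%. In the recipients the medians were 64.0% for Pigr and 46.3% for Saa1. The Saa1 domain began around its start and went on past its end towards Saa4. The Saa2 start had no peak of H3K27ac, H3K4me1 or HNF4a in any library. In the long-term libraries H3K27ac covered 10.7 to 27.6% of its window, at the start of Saa1 and in a block past the end of Saa2. The RNA-seq libraries of the recipients held Saa2 at 50.7 CPM or more, and how reads shared with Saa1 were counted is not stated. The 250 bases before the 2 starts were 94.8% identical and peaks were called on unique reads. Whether this bears on the missing peak was not tested.

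The Duox2 and Duoxa2 starts lay in a common block of H3K27ac and H3K4me1 that was present in all long-term libraries. H3K27ac covered 34.0% of the Duox2 window (25.5 to 53.6%) and 25.01% of the Duoxa2 window in the long-term libraries, and 23.9% and 17.5% in the recipients. HNF4a had a peak past the far end of the Duox2 locus, 18.8 kb from the start, in 3 of 4 libraries, at a place that the GENCODE annotation of mm9 counts to an exon of Duox2. LFD 1 alone had a peak between the 2 starts and another over an exon of Duoxa1. Lcn2 had no H3K27ac peak at its start in any library of either experiment. The H3K27ac of its window lay in a block far before the start and in another past the end, and 3 other coding genes (Ptges2, Ciz1 and 1110008P14Rik) reach into that window.

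The Reg3 genes had little of either mark. Reg3b had an H3K27ac peak in 3 of 12 long-term libraries, all 3 of them from males, and in 0 of 11 recipient libraries. These peaks lay at the HNF4a site 8.54 kb before its start, and none lay at the start. At that site H3K4me1 was found in 11 of 12 libraries. Reg3g had H3K27ac in 1 of 12, from a male, and 0 of 11, H3K4me1 in 9 of 12, with 8 of them at the start, and no HNF4a peak. Windows without any H3K27ac peak made up 28.2% of all genes in the long-term and 26% in the recipient libraries. Nos2 stood between, with H3K4me1 at its start in 12 of 12 and H3K27ac in the window in 9 of 12, 3 of 6 on the HFD and 6 of 6 on the LFD. In the recipients 6 of 11 had it. Nos2 also had no HNF4a peak, nor did Saa2.

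HNF4a was in the window of 2 members, Saa1 and Pigr, in all 4 libraries, against 28% of genes. Besides its 2 intronic sites Pigr had a peak at the start in 2 of 4 libraries, 1 per diet, and peaks 6.14 and 4.36 kb before it in 1 of 4 each. Lcn2 had a single HNF4a peak, in LFD 1, over an exon of Ptges2. LFD 1 had the longest list, 27766 peaks against 21308 to 22640, and with 2 libraries per diet the exact permutation test cannot go below a p of 0.33. No difference in HNF4a between the diets was therefore tested for the members.

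**Figure D4:**
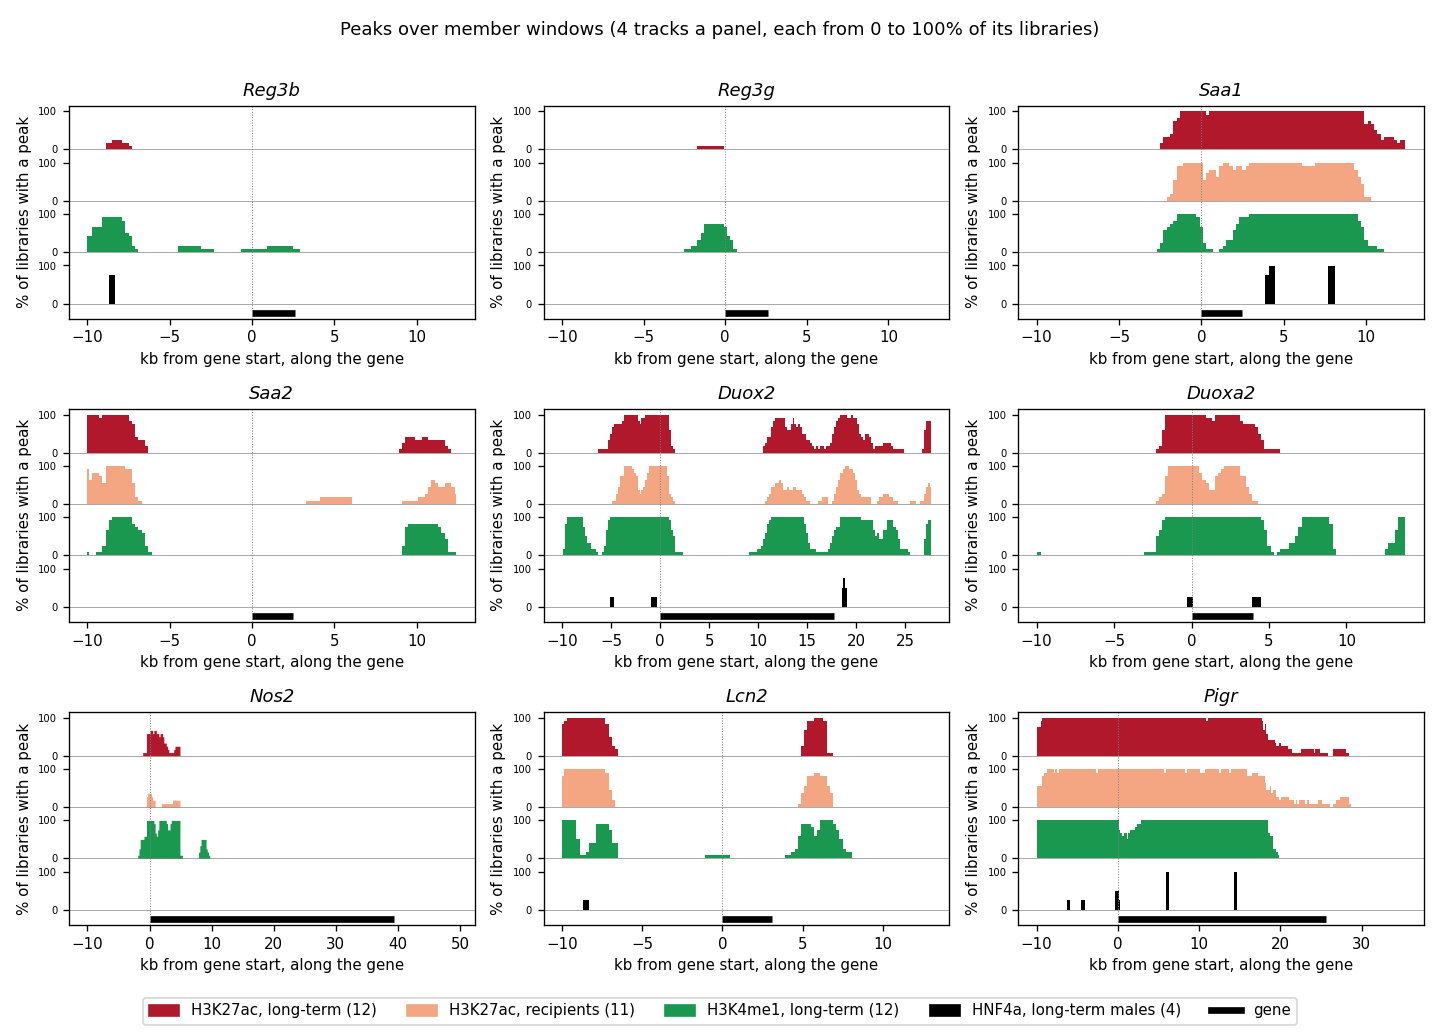
Share of libraries with a peak (y axis, each track from 0 to 100%) along the window of each member, in kb from the start in the direction of the gene. Tracks from top to bottom are H3K27ac in 12 long-term libraries, H3K27ac in 11 recipient libraries, H3K4me1 in 12 long-term libraries and HNF4a in 4, and the black bar is the gene. Pigr and Saa1 are covered broadly, Saa2 has no peak at its start, and Reg3b has an HNF4a site and H3K4me1 together 8.54 kb before its start.

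The diets were compared by the share of each window that peaks covered, with two-sided exact permutation tests that permuted diets within sex and can reach a p of 0.005. In the long-term animals H3K27ac differed for 0 of the 9 members at a p of 0.05, against 4.16% of windows higher on the HFD and 0.545% lower. H3K4me1 differed for Nos2 and Pigr, against 2.08% higher and 1.77% lower. Peaks of H3K4me1 covered 7.74, 7.74 and 9.76% of the Nos2 window in HFD males, 7.74, 10.8 and 7.74% in HFD females, 11.4, 12.4 and 11.4% in LFD males and 10.4, 9.42 and 11.1% in LFD females. The HFD mean was 8.58 ± 1.34% (SD, n = 6) and the LFD mean 11.1 ± 1.03% (SD, n = 6), which gives a difference of −2.47 points (exact permutation test, p = 0.015, and 1.0 adjusted over all windows). Males did not overlap between the diets, and females did. The coverage of the Nos2 window by H3K27ac, whose peak was missing in 3 HFD libraries, did not pass the test (−1.51 points, exact permutation test, p = 0.39).

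For Pigr the difference in H3K4me1 was small and in the other direction. Peaks covered 62.2, 62.2 and 63.5% of its window in HFD males, 62.2, 62.6 and 62.2% in HFD females, 58.7, 62.2 and 61.3% in LFD males and 59.1 to 60.4% in LFD females. The mean was 62.5 ± 0.532% (SD, n = 6) against 60.3 ± 1.32% (SD, n = 6), a difference of 2.19 points (exact permutation test, p = 0.015, and 1.0 adjusted over all windows). Each HFD library was at or above each LFD library. Over the 12 fits with a library left out the exact permutation p was 0.005 to 0.04 for Nos2 and 0.005 to 0.035 for Pigr. With the replicate number as a block the p was 0.0625 for both, and by the number of peaks it was 1.0 for both, with the sign turned. The H3K4me1 calls also depend on the window: Nos2 gave p = 0.065 over the gene alone, and Pigr p = 0.225 with 20000 bp on each side (exact permutation tests).

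Among recipients Pigr alone differed by diet in H3K27ac, against 15.5% of windows higher in HFD-fed recipients and 0.597% lower. Peaks covered 64.0 and 64.5% of the Pigr window in HFDHFB and 67.6, 64.1 and 66.2% in HFDLFB, against 58.7, 61.5 and 59.7% in LFDHFB and 63.2, 67.02 and 56.5% in LFDLFB. Every HFD-fed library was above every LFDHFB library, while LFDLFB 2 lay among the HFD-fed ones. The difference averaged over the donors was 4.0 points (exact permutation test with diets permuted within donor, p = 0.035, and 0.279 adjusted over all windows). The HFD-fed libraries also had more peaks genome-wide, 42486 to 51873 against 39684 to 45797. Relative to the mean coverage of all windows of each library the difference of Pigr was −0.48, the other way (exact permutation test, p = 0.16), and with each library left out in turn the p was at or below 0.05 in 3 of 11. Saa2 (6.24 points, p = 0.065) and Lcn2 (2.72 points, p = 0.075) missed the threshold of the exact permutation test. Between the bacteria, HFB against LFB, 0 members differed in H3K27ac, against 1.04% higher and 2.78% lower of the 17761 windows with a peak. The values ran from −3.25 points (Saa2) to 2.08 points (Duox2). Reg3b and Reg3g had no H3K27ac peak in any recipient library, so neither comparison of the recipients could test them.

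**Figure D5:**
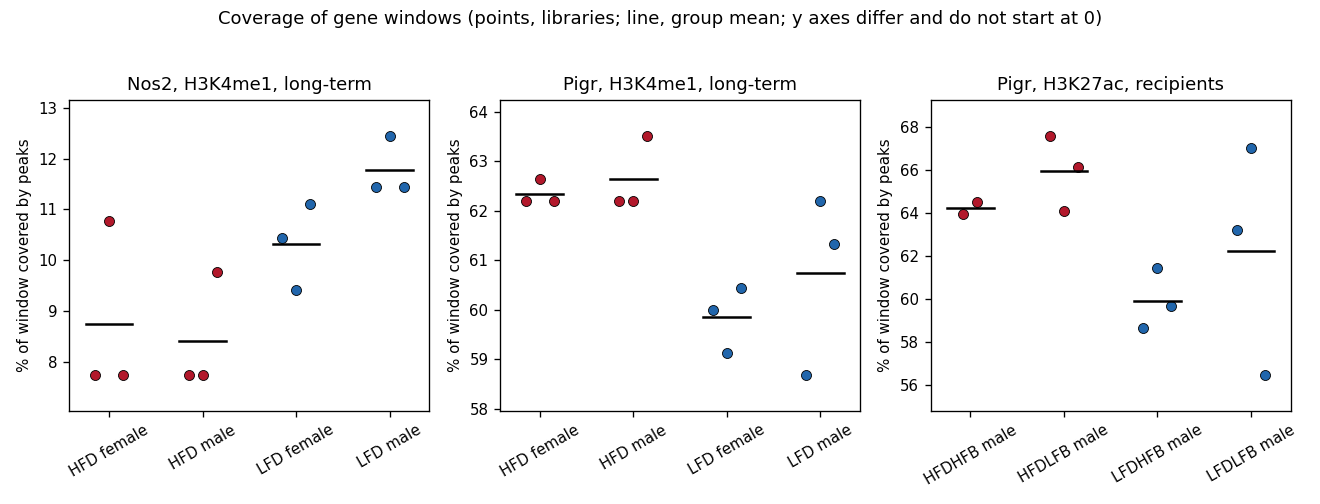
Share of the window covered by peaks (y axis, %, not starting at 0) for the 3 member and mark pairs whose exact permutation p was 0.05 or less. Points are libraries and lines are group means. H3K4me1 peaks cover less of the Nos2 window on the HFD (8.58 against 11.1%) and more of the Pigr window (62.5 against 60.3%). H3K27ac peaks cover more of the Pigr window in HFD-fed recipients (65.3 against 61.1%), a difference that turned the other way relative to all windows of a library. None of these differences passed an adjusted p of 0.05 over all windows.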

How the data were processed

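The authors aligned RNA-seq reads to mm9 with STAR 2.5 and deposited raw read counts per gene from featureCounts 1.5.0-p1. The strand setting and annotation release are not given in the sources used here. For ChIP-seq the deposited lists hold the start and end of each peak, 1 list per library, called by SICER (histone marks) or HOMER (HNF4a) on unique, de-duplicated reads. They hold no height or read number, so their depth is unknown. Bowtie 0.12.8, Picard 1.110 and bedtools are also named in the submitters' processing notes.

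Counts were fitted in R 4.3.3 with edgeR 4.0.16 (TMM, filterByExpr, quasi-likelihood test, 4 groups in 1 fit, Benjamini-Hochberg adjustment over 15893 genes), with DESeq2 1.42.0 as an alternative. Log2 CPM used a prior count of 2. Window coverage (10 kb extension) was computed for 24010 genes with a single locus and compared by exact permutation tests. Peaks at a start overlapped its base. Sequences were read from the mm9 genome and from RefSeq promoters (GRCm38.p6).

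The members and lists were chosen with earlier results of these data known. All 9 members were named. Further genes of the lists were to be named if past an adjusted p of 0.05, and the 2 genes of highest r for each member. In simulated HFDHFB against HFDLFB data with 15743 genes, edgeR called 25 of 62 genes changed 2-fold, 66 of 70 changed 4-fold and 61 of 68 changed 8-fold. The changed genes were drawn at random from expressed genes. All members varied more within groups than the median gene (SD of log2 CPM 0.284), from 0.587 for Duox2 to 2.54 for Reg3b. The shares called in the simulation therefore do not apply to the members. Same-numbered libraries did not deviate together (18 pairs, r −0.59 to 0.45, 6 of them over 0.1), so the numbers were not used as pairs. Alternatives covered the tool, normalization, filter, groups fitted, replicate block, window size, measure of coverage and each library left out.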

Additional observations from a re-analysis of the deposited data

How the results depend on the processing

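No expression difference of a member passed an adjusted p of 0.05 under any alternative. In the main edgeR fit the interval of each member held 0, except that of Lcn2 in HFDHFB against HFDLFB. The signs given here are a description, and the cause of each change was not tested. DESeq2, on the same counts, called 19 genes higher and 61 lower in HFDHFB against HFDLFB, 0 and 1 in LFDHFB against LFDLFB, 93 and 22 in the interaction, 127 and 27 in HFDHFB against LFDHFB, 6 and 5 in HFDLFB against LFDLFB and 2 and 4 between the diets over both donors. Pigr in LFDHFB against LFDLFB turned to a log2 fold change of −0.003 with no filter or with only the groups compared, and to −0.001 with at least 1 CPM in 3 libraries. With the replicate number as a block, which the check of pairing did not back, edgeR called 0 genes in all 6 comparisons. Under the replicate block the value of Reg3b turned to 0.768 in HFDHFB against HFDLFB and to 0.095 in HFDLFB against LFDLFB, that of Pigr to −0.079 in LFDHFB against LFDLFB, and that of Duoxa2 to 0.105 in the interaction, 0.104 in HFDHFB against LFDHFB, −0.001 in HFDLFB against LFDLFB and 0.051 between the diets over both donors. The block also ended the calls on H3K4me1 coverage, leaving 0 members called (p = 0.0625 for Nos2 and for Pigr, by exact permutation). It left 0 members called for H3K27ac by diet of the recipients too, but there the blocked test could not reach a p of 0.05. HFDHFB had only 2 libraries, which left too few pairs, so nothing about Pigr follows from the lost call.

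With each RNA-seq library left out in turn, values that changed sign had these log2 ranges. HFDHFB against HFDLFB gave Nos2 −1.06 to 0.078, Pigr −0.647 to 0.205, Reg3b −0.84 to 0.803 and Reg3g −0.197 to 0.617. LFDHFB against LFDLFB gave Duox2 −0.514 to 0.528, Duoxa2 −1.11 to 0.295, Nos2 −0.549 to 1.28, Pigr −0.359 to 0.362, Saa1 −0.549 to 0.289 and Saa2 −0.27 to 0.493. HFDHFB against LFDHFB gave Duox2 −0.891 to 0.142, Duoxa2 −0.591 to 0.806, Nos2 −1.52 to 0.401 and Saa1 −0.751 to 0.075. HFDLFB against LFDLFB gave Duoxa2 −0.265 to 0.25, Nos2 −0.216 to 0.572, Pigr −0.58 to 0.27, Reg3b −1.25 to 3.45, Reg3g −1.05 to 2.17 and Saa1 −0.023 to 0.379. The interaction gave Duoxa2 −0.664 to 0.711, Nos2 −1.83 to 0.09 and Pigr −0.652 to 0.21. The diets over both donors gave Duox2 −0.312 to 0.216, Duoxa2 −0.259 to 0.45, Nos2 −0.603 to 0.356, Reg3b −2.09 to 0.235, Reg3g −1.53 to 0.076, Saa1 −0.27 to 0.152 and Saa2 −0.26 to 0.125.

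Among the peaks, H3K4me1 called 1 member with no extension (Pigr), 1 with 20000 bp (Nos2) and 0 by the number of peaks, against 2 as reported. For H3K27ac by diet of the recipients 2 members were called with 20000 bp and 0 by the number of peaks, and by bacteria 1 was called with 20000 bp. HNF4a was in the window of 1 member in all libraries with no extension and of 5 with 20000 bp. Signs that changed were, with 20000 bp, Nos2 0.896 (H3K27ac in long-term animals), Lcn2 −0.653 (by diet of recipients) and Duoxa2 1.86 points (by bacteria), and with 5000 bp Duox2 −1.56 and Lcn2 0.763 (H3K4me1) and Saa1 −0.935 points (H3K27ac by diet of recipients). With no extension they were Duox2 −4.51 (H3K4me1) and Saa1 −4.81 points (H3K27ac by diet of recipients). By the number of peaks, H3K27ac in long-term animals gave Saa1 −0.333 and Saa2 −0.167, H3K4me1 gave −0.167 for Reg3b, Duox2 and Pigr and 0.167 for Nos2 and Lcn2, H3K27ac by diet of recipients gave Duox2 −0.417, Duoxa2 and Nos2 −0.0833 each and Pigr −0.75, and by bacteria Saa1 0.0833, Duox2 −0.0833 and Duoxa2 0.583. Relative to all windows of a library, H3K27ac by diet of recipients gave Saa1 −0.579 (exact permutation p = 0.025), Duox2 −0.134, Duoxa2 −0.046, Nos2 −0.0018 and Pigr −0.477, and by bacteria Saa1 0.0455.

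With each ChIP-seq library left out in turn, the 2 calls for H3K4me1 held in all 12 fits. For H3K27ac the number of members called was 0 to 1 in long-term animals (Nos2 without HFD male 1, Saa1 without HFD female 3), 0 to 2 by diet of recipients and 0 to 1 by bacteria (Duox2 without HFDHFB 1, Pigr without LFDLFB 3). The call of Pigr by diet of recipients held without HFDLFB 2, LFDLFB 1 or LFDLFB 2 and was lost without any of the other 8. Values that changed sign ranged, for H3K4me1, over −0.883 to 3.09 (Duox2), −0.949 to 0.511 (Duoxa2), −3.83 to 2.73 (Reg3b) and −2.88 to 0.221 points (Reg3g). For H3K27ac they ranged by diet of recipients over −0.896 to 5.46 (Duox2) and −0.449 to 0.589 points (Nos2), and by bacteria over −1.1 to 5.26 points (Duox2). Peak lists give no depth, so that a window without a peak may hold signal under the caller's threshold.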

Other observations

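Genes of goblet cells, which make the mucus that lies over the epithelium, had mostly higher values with HFB than with LFB on the HFD. Of 8 goblet cell markers 5 were higher in HFDHFB than in HFDLFB at an unadjusted p under 0.05 (median log2 fold change 0.60) and 0 lower, while edgeR's quasi-likelihood test with Benjamini-Hochberg adjustment called 0 of them. Over all genes 9.07% stood at that level in either direction. In the same comparison 8 of 8 smooth muscle markers had positive values (median 0.77, 0 at that level) and 7 of 8 mesothelium markers were lower at that level (median −2.17), and their part was not tested. On the LFD the same contrast of bacteria had 0 goblet cell markers higher and 1 lower at that level, with a median of −0.16. Among secreted proteins that hold bacteria away from the epithelium, Lypd8 was at 12600 to 26400 CPM, Zg16 at 4800 to 8930 CPM and Dmbt1 at 2480 to 7280 CPM, whereas Reg4 (17.3 to 314 CPM), Retnlb (11.7 to 357 CPM) and Ang4 (67.3 to 1040 CPM) varied more between libraries. These genes were picked out after their values were seen.

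The count of Reg3b was 0.731 to 11.7 times that of Reg3g (median 5.35), a far wider range than the 32.1 to 50.4 of Saa1 over Saa2. The count of Duox2 was 1.95 to 5.87 times that of Duoxa2 (median 3.03), with the highest ratio in LFDHFB 3.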
